A study of Homo sapiens with 6 samples.

Results

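Apolipoprotein E and the genes through which liver X receptors (LXRs) control lipid efflux were examined in U87MG cells treated with RSL3. The 9 genes were taken by name and matched to their Ensembl identifiers: APOE, APOC1, CLU, ABCA1, ABCG1, MYLIP, NR1H2, NR1H3 and LRP1. All 9 were found among the 65988 gene identifiers of the count files, and 8 of the 9 passed the filter on low counts, with ABCG1 left out. APOE was chosen by its rise in counts between the control and RSL3 libraries used here, so its change is described without a test. The other 8 were named for their function, with results of these libraries already known.

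U87MG, a cell line from a human glioblastoma labelled WT for genotype, was grown in DMEM with heat-inactivated fetal bovine serum. Control cells received vehicle (n = 3 libraries). Treated cells received 2 uM RSL3, an inhibitor of the lipid peroxide reductase GPX4, for 24 h (n = 3 libraries). Poly(A) RNA was sequenced, and reads were counted per gene without regard to strand. The labels number the replicates but do not say whether they came from separate cultures, so p-values measure the spread between these libraries, which may be technical. All values come from 1 cell line at 1 dose and 1 time. The comparison asks whether genes under LXR control moved with APOE.

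LXRs are nuclear receptors that bind oxysterols, which are oxidised forms of cholesterol, and act as partners of retinoid X receptors (RXRs). They switch on genes that carry cholesterol out of the cell, among them the transporters ABCA1 and ABCG1 and the lipid acceptor apolipoprotein E. They also raise the E3 ligase MYLIP (IDOL), which limits lipoprotein uptake, and genes of fatty acid synthesis. When sterols are abundant, LXR targets are known to rise while the SREBP2 pathway of cholesterol synthesis and uptake is held down. In the brain, astrocytes are the main source of apolipoprotein E, which leaves the cell with lipid loaded by ABCA1.

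LXR and RXR bind pairs of similar half-sites spaced 4 bases apart, called DR4 elements. The form searched here was GGTNA followed by 5 bases of any kind and GGTCA, on both strands, written with the known element of ABCA1 in mind, so that its match in ABCA1 was fixed by that choice. The matches near APOE and near ABCA1 are shown because these are the members with the clearest changes, with the fixed ends of the motif in capitals and each read on the strand of the match.
APOE, 7319 bases after the gene start, chr19:44913103-44913117, plus strand: GGTCActggcGGTCA
APOE, 19874 bases after the gene start, chr19:44925658-44925672, plus strand: GGTCActggcGGTCA
ABCA1, 62 bases before the gene start, chr9:104928210-104928224, plus strand: GGTTActatcGGTCA
ABCA1, 1415 bases after the gene start, chr9:104926733-104926747, plus strand: GGTTActcccGGTCA
ABCA1, 19285 bases after the gene start, chr9:104908863-104908877, plus strand: GGTGAccagtGGTCA
Positions are on GRCh38, and distances are from the start of the gene in the GENCODE v44 annotation to the middle of the match. Both matches near APOE held the same letters, on either side of APOC1. Of 20020 protein-coding genes, 31.7% had a match within 20 kb of their start. The same held for 6 of the 9 members, with APOE and APOC1 sharing both of their matches, and for 12 of 21 other LXR targets. Among these, the only match of APOC4 is the farther of those near APOE. ABCG5 and ABCG8, which lie side by side, have 1 match each and may share it. The counts are therefore not all of separate sites.

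The promoters of both genes are shown because only ABCA1 held a match there. Among 34943 RefSeq promoter windows, each running from 250 bases before to 50 bases after a gene start, 83 (0.238%) held the motif. Of the 7 members with such a window, 1 did, namely ABCA1. CLU and ABCG1 had no entry. The 250 bases before each RefSeq start are given in the direction of the gene (GRCh38.p14), and the match in ABCA1 is in capitals, read here on the strand opposite to that of the list above.
ABCA1, chr9:104928156-104928405, minus strand: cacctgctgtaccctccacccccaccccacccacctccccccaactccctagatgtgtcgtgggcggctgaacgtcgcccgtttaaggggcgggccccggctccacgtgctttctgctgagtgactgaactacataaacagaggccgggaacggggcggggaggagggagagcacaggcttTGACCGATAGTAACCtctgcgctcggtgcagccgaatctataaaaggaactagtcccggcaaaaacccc
APOE, chr19:44905546-44905795, plus strand: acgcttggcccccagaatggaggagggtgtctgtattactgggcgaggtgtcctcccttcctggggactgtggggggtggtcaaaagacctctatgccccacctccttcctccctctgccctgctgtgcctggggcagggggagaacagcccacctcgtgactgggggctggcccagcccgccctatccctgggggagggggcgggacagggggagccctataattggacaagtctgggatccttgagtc
A match describes letters in the genome. Binding was not measured.

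Library totals ran from 27813462 to 43306335 counts, and TMM factors lay between 0.995 and 1.01. Each of the 16105 genes that passed the filter was tested with edgeR's quasi-likelihood test, p was adjusted over all of them, and a gene was called at an adjusted p under 0.05. By this rule 25.6% of genes were called, 12.9% higher and 12.7% lower in RSL3-treated cells. The mesenchymal genes of the line (VIM, CD44, FN1, NES, TIMP1, ANXA1) summed to between 6444 and 6608 CPM (counts scaled to a common library size) in control libraries and between 6104 and 6193 CPM in RSL3 libraries. Of these 6, 2 were called higher and 3 lower, beside 25.6% of all genes called in either direction. Astrocyte markers summed to between 53.9 and 65.6 CPM in control and between 39.2 and 50.2 CPM in RSL3 libraries, with 2 of 6 under 10 counts in every library. GJA1, a connexin gene, made up most of that sum and was called lower, from 1666 ± 190 to 1119 ± 171 normalized counts (SD, n = 3 each, edgeR adjusted p = 1.77e-05). GFAP, the astrocyte filament gene, had 104 ± 11.6 and 138 ± 19.7, with the RSL3 libraries above the control libraries, but was not called (edgeR adjusted p = 0.0726), and neither was SLC1A2, at 190 ± 13.7 and 234 ± 36.4 (edgeR adjusted p = 0.0885). Their part in the results below was not tested. The 7 microglia and macrophage markers summed to between 2.79 and 3.26 CPM in control and between 2.18 and 3.08 CPM in RSL3 libraries, and 6 of them were under 10 counts in every library, PTPRC included. Neuron markers summed to 30.2 to 32.6 CPM in control and 33.0 to 33.7 CPM in RSL3 libraries, and oligodendrocyte markers to 11.2 to 11.6 and 13.1 to 14.6 CPM. Of the neuron markers, SNAP25 was called lower, from 175 ± 28.4 to 84.3 ± 6.03 normalized counts (SD, n = 3 each, edgeR adjusted p = 4.84e-05). SYT1 was called higher, from 888 ± 23.3 to 1048 ± 17.7 (edgeR adjusted p = 0.00214). Of the oligodendrocyte markers, MBP was called higher, from 91 ± 13 to 150 ± 9.07 (edgeR adjusted p = 0.00185), and OLIG2 was not called (edgeR adjusted p = 0.347). Hepatocyte markers summed to 1.40 to 1.82 CPM in control and 1.24 to 2.28 CPM in RSL3 libraries. AQP4, AIF1, MOG and APOA2 were at 0 in every library.

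APOE carries cholesterol and phospholipid on lipoproteins and is a ligand of lipoprotein receptors such as LRP1. Its normalized counts, which are counts scaled by TMM to the mean library size, were 92.0, 82.4 and 80.4 in control replicates 1 to 3. In RSL3 replicates 1 to 3 they were 361, 283 and 324. Every RSL3 library lay above every control library by more than the range within either group. APOE was chosen by this rise, so the gap is no support for it. The group means were 84.9 ± 6.16 (SD, n = 3) and 322 ± 39.3 (SD, n = 3), a log2 fold change of 1.91 (standard error 0.13) and a fold of 3.77. In raw reads the gene had 67 to 117 counts per control library and 272 to 324 per RSL3 library, so counting error is a visible part of its spread. In bulk RNA, a larger share of cells with the transcript and more transcript per cell cannot be told apart.

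APOC1 encodes a small apolipoprotein from the same cluster of genes as APOE. It had 9, 2 and 13 raw counts in the control libraries and 17, 14 and 17 in the RSL3 libraries. The groups did not overlap, but the highest control library, replicate 3, was close to the lowest RSL3 library, at 12 against 14.5 normalized counts. The log2 fold change was 1.17 (95% interval 0.17 to 2.17, edgeR adjusted p = 0.081), so the gene was not called. It passed the filter through the RSL3 libraries, and 40.7% of its exon bases are shared with the unnamed gene ENSG00000280087. Without control replicate 3 the log2 fold change was 1.70 and the adjusted p was 0.041 in edgeR.

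CLU, which encodes the secreted chaperone and apolipoprotein clusterin, had the highest level of the members per exon length. Its normalized counts were 23108, 23302 and 22717 in control libraries and 24680, 24238 and 24303 in RSL3 libraries. The groups did not overlap, and the difference was 1.06-fold (log2 fold change 0.08, 95% interval 0.03 to 0.14, edgeR adjusted p = 0.0251). This call rested on single libraries, with an edgeR adjusted p of 0.119 without RSL3 replicate 1, 0.0748 without RSL3 replicate 2 and 0.0571 without control replicate 3. With 2 surrogate variables in DESeq2 it was 0.0516.

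**Figure D1:**
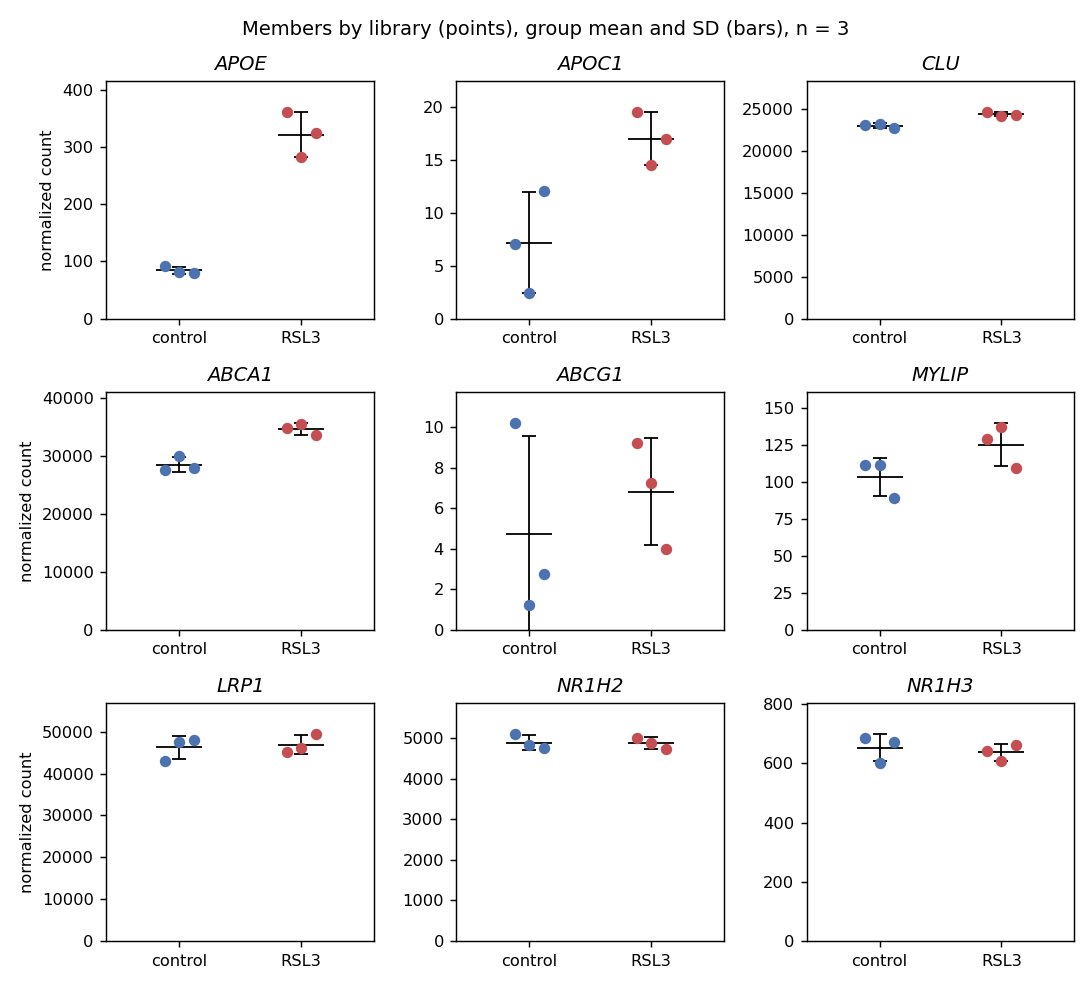
Normalized counts (vertical axes, each from 0) of the 9 members in the 3 control and 3 RSL3 libraries (points), with the group mean and SD (bars, n = 3). APOE sits between 80.4 and 92.0 in control and between 283 and 361 in RSL3 libraries, while LRP1, NR1H2 and NR1H3 overlap between the groups.

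ABCA1 moves cholesterol and phospholipid from the cell to poorly lipidated apolipoproteins, among them apolipoprotein E. Its normalized counts were 27594, 29984 and 27944 in control libraries and 34888, 35589 and 33604 in RSL3 libraries. All 3 RSL3 libraries lay above all control libraries. ABCA1 rose 1.22-fold (95% interval 1.16 to 1.27), from 28507 ± 1291 to 34693 ± 1007 (SD, n = 3 each), with a log2 fold change of 0.28 and an edgeR adjusted p of 8.86e-07. No exon base of ABCA1 is shared with another annotated gene. APOE, described above, differed 3.77-fold.

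ABCG1, which exports cholesterol to mature high-density lipoprotein, had the lowest level of the members per exon length. It had 13, 1 and 3 raw counts in control libraries and 8, 7 and 4 in RSL3 libraries, and was not tested. The groups overlapped, and no difference was detectable at this depth.

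MYLIP had normalized counts of 111, 111 and 88.8 in control libraries and 129, 137 and 109 in RSL3 libraries. RSL3 replicate 3 fell within the control range. The log2 fold change was 0.27 with a wide 95% interval of -0.07 to 0.61, and the edgeR adjusted p was 0.248. The size of this estimate was close to that of ABCA1, but MYLIP had only 90 to 141 raw counts per library.

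LRP1 is a large endocytic receptor for apolipoprotein E. Its normalized counts were 43114, 47654 and 48080 in control and 45219, 46178 and 49382 in RSL3 libraries. The groups overlapped, and the fold of 1.01 had a 95% interval of 0.961 to 1.07 (edgeR adjusted p = 0.756).

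The receptors themselves gave no call. NR1H2 encodes LXRβ, the form present in most tissues, and NR1H3 encodes LXRα, the form of liver, fat and macrophages. NR1H2 had 5101, 4827 and 4754 normalized counts in control and 5021, 4884 and 4739 in RSL3 libraries. Its fold was 0.997 (95% interval 0.947 to 1.05, edgeR adjusted p = 0.945). NR1H3 had 686, 602 and 672 in control and 641, 609 and 663 in RSL3 libraries, a fold of 0.972 (95% interval 0.876 to 1.08, edgeR adjusted p = 0.748). In both genes the groups overlapped. NAPSA covers 22.1% of the exon bases of NR1H2.

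Of the 7 tested members other than APOE, 2 were called, ABCA1 and CLU, both higher, beside 25.6% of all genes called in either direction and 12.9% called higher, so the share of members called was near that of all genes. In 3 of the 7, APOC1, CLU and ABCA1, the groups did not overlap, all with the RSL3 libraries higher, beside 38.6% of all genes in either direction and 19.3% higher. APOC1 had passed the filter through its RSL3 libraries, so its place among these is no support for a rise. Their median log2 fold change was 0.08, against -0.0044 over all genes tested.

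The levels of the genes were compared per exon length, as RPKM with TMM-adjusted totals and GENCODE v44 exon lengths. In control cells the order of mean levels was CLU (107 RPKM), ABCA1 (73.7), LRP1 (65.1), NR1H2 (26.9), NR1H3 (4.23), APOE (1.16), MYLIP (0.987), APOC1 (0.179) and ABCG1 (0.0227). No neighbours in this order overlapped between libraries, though APOE and MYLIP were close, at 1.09 to 1.25 against 0.847 to 1.06 RPKM. LXRβ transcripts were thus several times as abundant as LXRα transcripts. In RSL3-treated cells APOE reached 4.39 ± 0.535 RPKM (SD, n = 3), which overlapped the level of NR1H3 at 4.12 ± 0.177 RPKM. Even then APOE remained far below ABCA1, at 89.7 ± 2.6 RPKM, and LRP1, at 66.0 ± 3.06 RPKM.

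**Figure D2:**
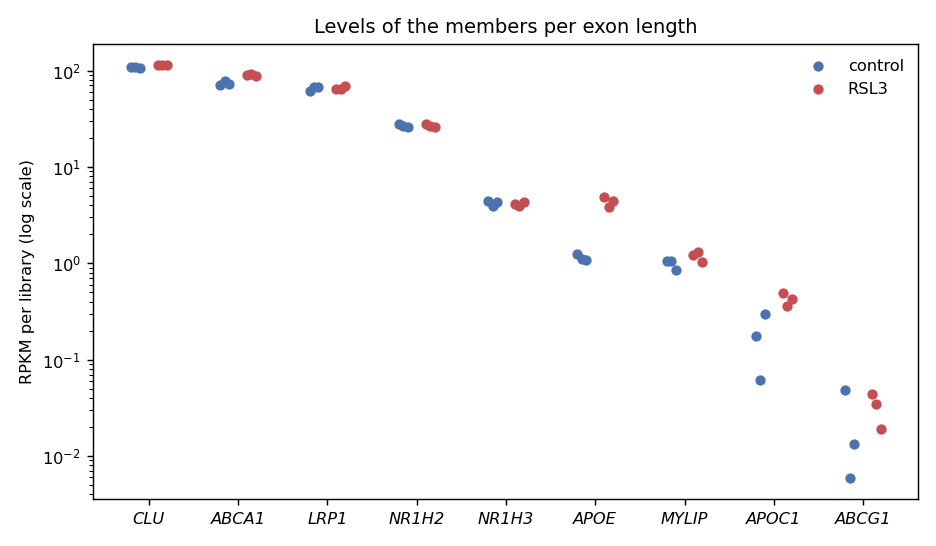
Levels of the 9 members per exon length (RPKM, log scale) in each control and RSL3 library, ordered by the control mean. APOE lies near 1 RPKM in control libraries and between 3.85 and 4.92 RPKM in RSL3 libraries, while ABCG1 lies under 0.05 RPKM in all 6 libraries.

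Many other LXR target genes were lower in RSL3-treated cells. Of the 21 listed, 12 were tested, 7 were called lower and 0 higher, beside 12.7% of all genes called lower. Their median log2 fold change was -0.31, and 11 of the 12 lay below 0. In all 7 the RSL3 libraries lay below the control libraries, beside 38.6% of all genes whose groups did not overlap in either direction. These 7 are the genes already called lower, so the gap is not separate support. Several of these genes, SCD, FASN and PNPLA3 among them, are also targets of SREBP1, the product of SREBF1, so LXR is not their only regulator.

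SCD, the stearoyl-CoA desaturase that makes monounsaturated fatty acids, had the largest change of the 12 tested genes. Its normalized counts were 289451, 301385 and 307442 in control and 175396, 175379 and 193502 in RSL3 libraries, a log2 fold change of -0.72 (edgeR adjusted p = 1.64e-12). SREBF1, the transcription factor gene through which LXR raises lipogenesis, fell from 9824 ± 261 to 8403 ± 332 (SD, n = 3 each) normalized counts, by 0.23 on the log2 scale (edgeR adjusted p = 2.81e-05). FASN, the fatty acid synthase, fell from 23776 ± 953 to 19957 ± 1324 (SD, n = 3 each), by 0.25 on the log2 scale (edgeR adjusted p = 4.11e-05).

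Some targets outside fatty acid synthesis were called lower as well, and others were not called. SMPDL3A, a secreted phosphodiesterase gene, had a log2 fold change of -0.41 (edgeR adjusted p = 0.000794). PNPLA3, a lipid droplet lipase gene and an SREBP1 target as said above, had one of -0.46 (edgeR adjusted p = 0.00116). LPCAT3, which loads polyunsaturated fatty acids into phospholipids, had a log2 fold change of -0.37 (edgeR adjusted p = 0.00608). EMG1 covers 66.0% of the exon bases of LPCAT3. The edgeR adjusted p of LPCAT3 was 0.0511 without control replicate 3, and its DESeq2 adjusted p was 0.0739 with 2 surrogate variables. PLTP, which transfers phospholipid between lipoproteins, had 17609 ± 86.2 and 17587 ± 190 normalized counts (SD, n = 3 each) and was not called (log2 fold change -0.0017, edgeR adjusted p = 0.975). RNF145 was not called (log2 fold change -0.07, edgeR adjusted p = 0.189). MERTK, with at most 35 counts in any library, was not called (log2 fold change -0.43, edgeR adjusted p = 0.499). Of the 7 lower genes, 5 had a DR4 match within 20 kb of their start, beside 31.7% of protein-coding genes. Only 3 of the 7 had a promoter window, and 0 of these held a match.

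**Figure D3:**
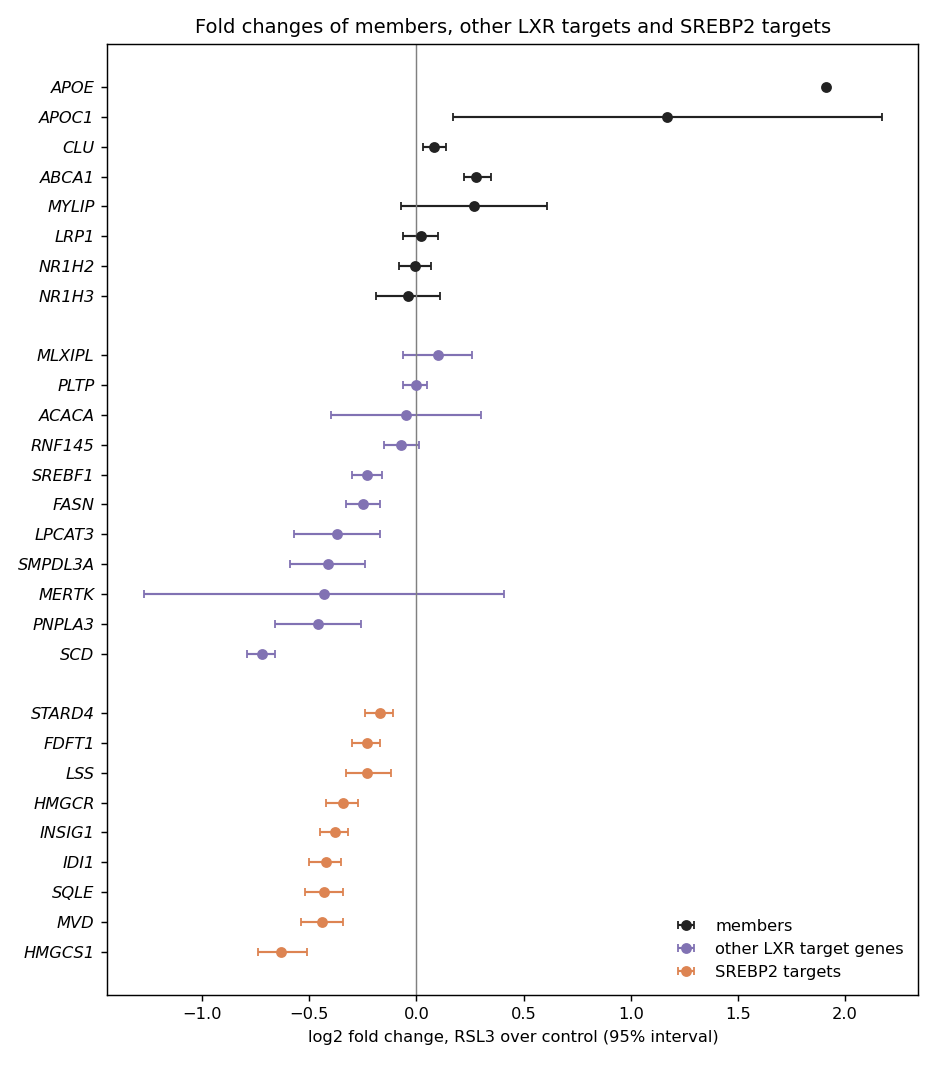
Log2 fold changes, RSL3 over control, with 95% intervals from edgeR except for APOE, drawn as a point alone, for the 8 members that passed the filter, 11 of the 12 tested other LXR targets and 9 of the 10 SREBP2 targets. APOE (1.91) and ABCA1 (0.28) lie right of 0, whereas 10 of the 11 other LXR targets and all 9 SREBP2 targets drawn lie left of it.

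SREBP2 targets, which sterols hold down, were lower. Of 10 listed genes, 9 were called lower and 0 higher, beside 12.7% of all genes called lower. Their median log2 fold change was -0.36. Sterol synthesis genes were already known to be lower in these libraries. IDI1, an isomerase of the mevalonate pathway, fell by 0.42 on the log2 scale (edgeR adjusted p = 1.19e-08), and IDI2-AS1 covers 15% of its exon bases.

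Most tested genes that make or convert LXR ligands were lower. Of 11 genes for oxysterol synthesis and conversion, 6 were tested, and 5 were called lower and 0 higher (median log2 fold change -0.45). Over all genes tested, 12.7% were called lower and the median was -0.0044. CH25H makes 25-hydroxycholesterol and is named here after its values were seen. It had 936, 1035 and 922 normalized counts in control and 653, 600 and 641 in RSL3 libraries (log2 fold change -0.61, edgeR adjusted p = 4.98e-07). CYP27A1, which makes 27-hydroxycholesterol, was the tested gene not called and is also named after its values were seen. It had 11.8, 16 and 33.3 normalized counts in control and 34.5, 41.6 and 33 in RSL3 libraries, and control replicate 3 overlapped the RSL3 range (log2 fold change 0.83, 95% interval 0.07 to 1.59, edgeR adjusted p = 0.101). Without control replicate 3 its log2 fold change was 1.41 and its edgeR adjusted p was 0.0149. Of the other genes called lower, EBP and DHCR7 are also enzymes of cholesterol synthesis.

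The partners and coregulators of LXR moved in both directions. Of 14 genes, 12 were tested, with 7 called higher and 2 lower (median log2 fold change 0.14). Over all genes tested, 12.9% were called higher and 12.7% lower. NCOA3, a nuclear receptor coactivator, had the smallest p among those higher (log2 fold change 0.30, edgeR adjusted p = 1e-06), and TBL1XR1, a part of the NCoR corepressor complex, among those lower (log2 fold change -0.27, edgeR adjusted p = 0.000907). RXRA, the main RXR, had 1746 ± 44.6 and 1724 ± 70.8 normalized counts (SD, n = 3 each) and was not called (edgeR adjusted p = 0.818). RXRB had at most 2 counts in any library. It lies in the major histocompatibility region of chromosome 6, where 146 of 178 protein-coding genes (82.0%) had under 10 counts in every library, against 32.1% of the other protein-coding genes, so its low count, like those of AIF1, MOG and APOM from that region, is not taken as a lack of expression. Low counts outside that region, such as 90 to 140 raw counts per library for ACACA, a tested LXR target, and at most 5 for the receptor genes LRP5 and LRP6, which were not tested, are read with the same reserve, and their cause was not tested.

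Receptors for apolipoprotein E and related genes moved in both directions. Of 20 genes, 13 were tested, 2 were called higher and 3 lower, and 8 were not called (median log2 fold change -0.04), beside 25.6% of all genes called in either direction. LRP1B, a relative of LRP1, rose from 931 ± 22 to 1194 ± 25.5 normalized counts (SD, n = 3 each), with a log2 fold change of 0.36 (edgeR adjusted p = 2.01e-05).

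Other apolipoprotein genes were mostly too low to test. Of 20 other apolipoprotein genes, 13 failed the filter. Of the 7 tested, 1 was called higher and 3 lower, with a median log2 fold change of -0.22. Over all genes tested, 12.9% were called higher and 12.7% lower. The gene called higher was APOH, which encodes a phospholipid-binding plasma glycoprotein, at 380, 377 and 319 normalized counts in control and 644, 579 and 523 in RSL3 libraries (log2 fold change 0.70, edgeR adjusted p = 8.34e-06). APOL6, an intracellular apolipoprotein L gene, had a log2 fold change of -0.41 (edgeR adjusted p = 1.79e-07).

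The genes next to APOE on chromosome 19 were examined because several share its cluster. Of 14 annotated genes within 100 kb of APOE, 13 were in the files and 6 passed the filter, APOC1 among them. Of those 6, 4 were called higher and 0 lower, beside 12.9% of all genes called higher and 12.7% lower. APOC1 had passed the filter through its RSL3 libraries and was not called. The reason for the share among these neighbours was not tested. TOMM40, a mitochondrial import channel gene that ends 2102 bases before APOE, had 3266, 3156 and 3275 normalized counts in control and 4255, 4020 and 4088 in RSL3 libraries. Its groups did not overlap, and its log2 fold change was 0.35 (edgeR adjusted p = 1.8e-07), well under the 1.91 of APOE.

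The others called higher were RELB, an NF-κB subunit gene (log2 fold change 0.30, edgeR adjusted p = 4.22e-06), NECTIN2, an adhesion receptor gene (0.23, edgeR adjusted p = 0.000281), and CLPTM1 (0.11, edgeR adjusted p = 0.0208). CLPTM1 lost its call without RSL3 replicate 1 (adjusted p = 0.11), RSL3 replicate 2 (adjusted p = 0.111) or control replicate 2 (adjusted p = 0.0666) in edgeR. The 7 untested genes had at most 11 counts in any library. Among them was ENSG00000280087, which runs from 44909375 to 44914968, overlaps the ends of APOE and APOC1 that face each other, and contains the nearer of the matches shown above. It had 2, 0 and 1 counts in control libraries and 0 in each RSL3 library.

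**Figure D4:**
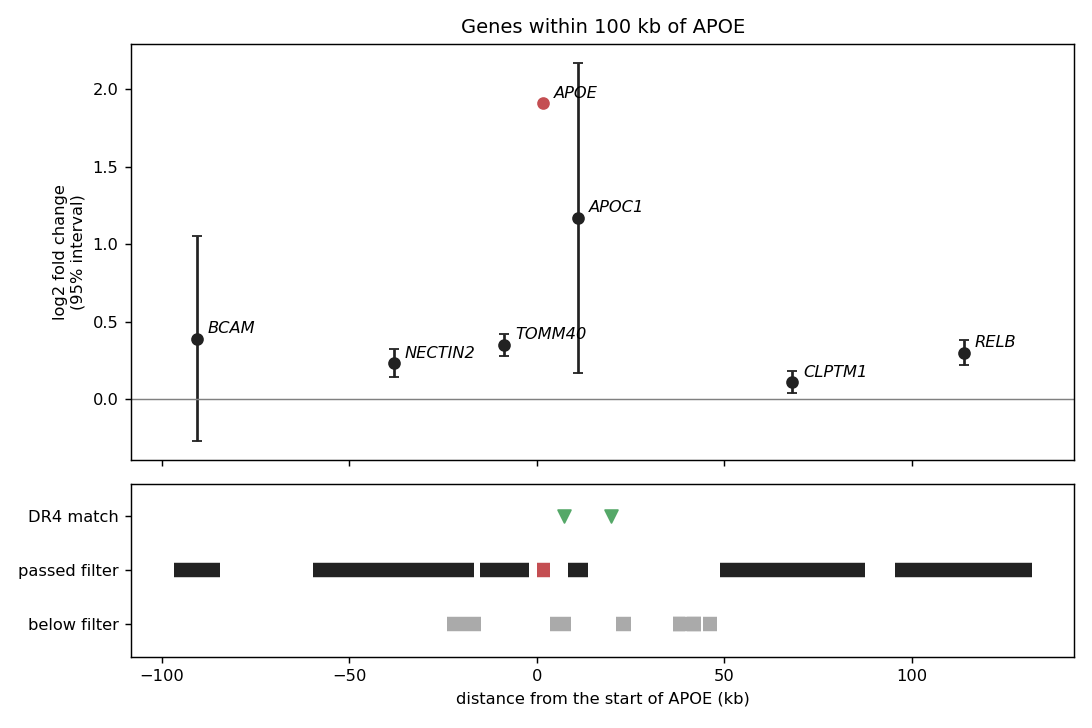
Genes within 100 kb of APOE by distance from its start (kb): above, log2 fold changes with 95% intervals for the 6 tested neighbours, and APOE as a point alone; below, gene bodies of genes that passed or failed the filter, APOE in red, and the DR4 matches near APOE. APOE at 1.91 lies above TOMM40 at 0.35 and NECTIN2 at 0.23, and APOC1 at 1.17 has an interval from 0.17 to 2.17.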

How the data were processed

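Reads were trimmed by the authors (Trimmomatic 0.36) and mapped with HISAT2 (GRCh38.p4), and HTSeq 0.6.1p1 counted exon reads without strand. The deposited values are raw counts per Ensembl gene, not normalized. The release of the annotation is not given in the sources used here. Symbols and exon lengths come from GENCODE v44, promoters from RefSeq.

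Tests were run in edgeR 4.0.16 under R 4.3.3: filterByExpr (minimum count 10), TMM, the quasi-likelihood test without covariates, and Benjamini-Hochberg adjustment over 16105 genes. The authors used DESeq2 after surrogate variable analysis, tried here as an alternative (DESeq2 1.42.0, sva 3.50.0). Further alternatives were other scalings and filters, a replicate block and each library left out. Scripts were tested on simulated data. Replicate libraries differed by more than counting noise.

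The members and the lists were chosen with earlier results of these data known. Named genes are the members, the called gene with the smallest p in each direction of a list, all called LXR targets and neighbours of APOE, and the 5 genes whose profile was nearest to that of APOE. Some genes that this rule names are not reported here; they remain in the counts and medians of their lists.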

Additional observations from a re-analysis of the deposited data

How the results depend on the processing

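Across the 16 alternatives the log2 fold change of APOE ran from 1.83 to 2.00. APOE was chosen by its rise in these libraries, so this range describes the estimate and is no support for a rise. The threshold of 0.01 leaves every fold change as it was. Each alternative kept the call of ABCA1 (0.26 to 0.32, largest adjusted p 4.35e-05 across edgeR and DESeq2). The number of genes called over all genes fell from 4123 to 2268 with 2 surrogate variables in DESeq2 and to 2691 at a threshold of 0.01. The 2 called members other than APOE became 1 with 2 surrogate variables in DESeq2, where CLU had a log2 fold change of 0.08, and 1 at a threshold of 0.01, where it also had 0.08. With each library left out, 1 to 2 members were called. CLU then lay between 0.08 and 0.09, APOC1 between 0.84 and 1.70, NR1H2 between -0.03 and 0.03 and LRP1 between -0.03 and 0.05. In edgeR with 1 surrogate variable 3 members were called, since APOC1 (1.31, adjusted p = 0.0434) joined them. MYLIP and NR1H3 were called under none of the alternatives run. The LXR target count stayed between 6 and 7, all lower. PLTP, near 0, turned to 0.00065 with at least 10 counts in every library, and in DESeq2 to 0.0011, 0.0012 and 0.00073 with 0, 1 and 2 surrogate variables. It ranged from -0.01 to 0.01 with a library left out. The cause of these changes was not tested.

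The counts did not settle whether the replicate numbers pair the libraries. Deviations from the group means correlated at 0.0222, 0.0273 and 0.0745 between libraries of the same number. Between libraries of different numbers the correlations ran from -0.0514 to 0.0242. Centring on the group means ties these values to each other, so they cannot decide the question. With the replicate number as a block, 4633 genes were called, against 4123 without it. In that fit 2 members were called, and no member changed its call. Depth limits ABCG1, APOC1 and MYLIP.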

Other observations

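Genes that export cholesterol, store it or move it inside the cell moved in both directions. Of 20 genes for export, esterification and intracellular transport, 19 were tested, with 2 called higher, 6 lower and 11 not called (median log2 fold change -0.03), beside 25.6% of all genes called in either direction. LIPA, the lysosomal acid lipase that frees cholesterol from its esters, had 4208, 4073 and 4050 normalized counts in control and 3051, 3078 and 3269 in RSL3 libraries (log2 fold change -0.39, edgeR adjusted p = 5.57e-08). SOAT1, which esterifies cholesterol for storage, rose from 5949 ± 90.5 to 6475 ± 132 (SD, n = 3 each), a log2 fold change of 0.12 (edgeR adjusted p = 0.00565).

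The genes whose profile over the 6 libraries was nearest to that of APOE were sought among 11463 tested genes with a mean normalized count of at least 100. The measure was the root mean square difference of log2 CPM, each gene centred on its control mean. The nearest were ENSG00000230882 (0.302), NRCAM, a neural adhesion molecule gene (0.308), SPX (0.378), the interleukin subunit gene IL23A (0.384) and the pannexin gene PANX2 (0.404). Their log2 fold changes lay between 1.44 (SPX) and 1.62 (NRCAM). This nearness follows the size of the rise with RSL3 and has no test.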
